A study of Mus musculus with 3 samples.

Results

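The genes described here are the protein-coding genes of OCCM-30 mouse cementoblasts compared between 14 days in cementogenic medium and day 0. They were chosen by 2 conditions, a protein-coding type in the deposited gene table and a summed count of 20 or more over the day 0 and day 14 libraries, and neither condition uses the difference between the days. Of 22077 protein-coding genes, and of 46095 genes of any type, 12041 met both. OCCM-30 is an immortalised cementoblast line, labelled wild type, and each library is total RNA of that 1 line. The day 0 cells had not been induced, and the other cells had spent 7 or 14 days in the medium, whose composition the sources used here do not give. There was 1 library per time point. Time in culture and induction cannot be told apart, since no uninduced culture of the same age was analysed here.

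Cementoblasts lay down cementum, the mineralised tissue that covers the tooth root and holds the fibres of the periodontal ligament. They share much of their machinery with osteoblasts: the transcription factors RUNX2 and osterix (SP7) act in sequence, BMP signals reach the nucleus through SMAD1, SMAD5 and SMAD9, and the cells secrete a collagen matrix before mineral is deposited in it. FGF signals through ERK induce the ETS factors ETV4 and ETV5 and a set of feedback inhibitors, and D cyclins carry mitogenic signals to the cell cycle.

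The day 0, 7 and 14 libraries summed to 13224690, 14034518 and 14439666 gene counts, and the genes described here held 95.1%, 93.6% and 93.7% of them. Levels are given as CPM, counts scaled to a common library size with a TMM factor, and where 3 levels stand in a row they belong to day 0, 7 and 14. A gene is said to have risen or fallen on day 14 where it was at least 2-fold from day 0, its 95% counting interval excluded no change, and its higher library reached 1 CPM. The figures in brackets after a fold are that interval. Without a second library on either side there is no test and no p-value. These brackets and all floors describe counting error alone: the reads carry no molecular identifiers and so are not independent molecules, and variation between cultures was not measured. A count of 0 was set against a floor of 3 counts, which is 0.211, 0.221 and 0.216 CPM on day 0, 7 and 14. In a bulk library fewer cells of a type and less RNA per cell cannot be told apart.

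Promoter sequences of 6 genes that the results turn on are shown first, as 250 bases before and 50 after a RefSeq transcription start on the GRCm38.p6 assembly. Only the first listed start of each gene was used, and RefSeq starts can differ from the gene ends in the deposited table. The Sema3a window lies well inside the listed gene (13125370 to 13606234), so it may not be the main promoter of that gene. Runx2 and Smad9 carry the osteogenic and BMP branches, Tnn and Wif1 are among the largest increases, and Sema3a and Slit2 among the largest decreases. Lower case is sequence without a match, and capitals mark a match, on either strand, to 1 of 8 short motifs. The motif searched for RUNX proteins was TGTGGT. A single site of steroid hormone receptors was searched as AGAACA, and that of CREB proteins as TGACGTCA. The AP-1 motif was written TGANTCA, and the core of the hypoxia response element as ACGTG. For the SMADs of the BMP branch the search used GGCGCC, and for SMADs in general GTCTAGAC. The TATA box was searched as TATAAA.
Runx2 (chr17:44814578-44814877, minus strand): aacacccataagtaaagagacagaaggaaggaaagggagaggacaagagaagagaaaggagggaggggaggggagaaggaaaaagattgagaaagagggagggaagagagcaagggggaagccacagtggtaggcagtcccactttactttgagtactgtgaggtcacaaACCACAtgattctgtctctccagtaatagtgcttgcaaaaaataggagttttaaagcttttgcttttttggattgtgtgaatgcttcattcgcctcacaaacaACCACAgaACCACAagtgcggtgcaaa
Smad9 (chr3:54755332-54755631, plus strand): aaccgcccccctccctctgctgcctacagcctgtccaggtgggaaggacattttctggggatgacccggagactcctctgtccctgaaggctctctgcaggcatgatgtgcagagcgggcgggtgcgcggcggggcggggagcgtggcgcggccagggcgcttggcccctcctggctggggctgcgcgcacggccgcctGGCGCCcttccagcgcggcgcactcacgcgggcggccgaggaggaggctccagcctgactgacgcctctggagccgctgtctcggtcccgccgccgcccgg
Tnn (chr1:160153526-160153825, minus strand): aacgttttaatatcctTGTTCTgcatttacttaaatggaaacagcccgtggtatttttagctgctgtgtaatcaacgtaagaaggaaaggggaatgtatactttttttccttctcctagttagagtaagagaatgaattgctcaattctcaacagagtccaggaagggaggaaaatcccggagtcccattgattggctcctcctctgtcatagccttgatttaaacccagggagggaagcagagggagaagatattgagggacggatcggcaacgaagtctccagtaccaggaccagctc
Wif1 (chr10:121033754-121034053, plus strand): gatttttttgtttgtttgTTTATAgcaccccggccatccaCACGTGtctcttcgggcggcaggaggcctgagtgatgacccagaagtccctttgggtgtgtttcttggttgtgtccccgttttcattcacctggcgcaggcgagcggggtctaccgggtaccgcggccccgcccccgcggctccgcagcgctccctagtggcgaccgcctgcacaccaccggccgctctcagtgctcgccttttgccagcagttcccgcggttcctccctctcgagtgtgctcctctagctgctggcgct
Sema3a (chr5:13396534-13396833, plus strand): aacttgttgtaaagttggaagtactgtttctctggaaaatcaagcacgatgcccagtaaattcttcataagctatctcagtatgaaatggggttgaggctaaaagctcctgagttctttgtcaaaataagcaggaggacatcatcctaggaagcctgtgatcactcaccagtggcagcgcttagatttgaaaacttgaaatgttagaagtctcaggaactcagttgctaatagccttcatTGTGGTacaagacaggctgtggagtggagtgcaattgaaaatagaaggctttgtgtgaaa
Slit2 (chr5:47982905-47983204, plus strand): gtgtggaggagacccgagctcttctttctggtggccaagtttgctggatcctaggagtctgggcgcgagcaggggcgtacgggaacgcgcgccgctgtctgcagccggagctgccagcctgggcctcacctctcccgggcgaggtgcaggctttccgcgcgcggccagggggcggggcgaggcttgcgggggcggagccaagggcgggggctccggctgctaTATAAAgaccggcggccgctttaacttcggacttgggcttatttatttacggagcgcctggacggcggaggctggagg
With the transcription start as +1, the Runx2 window held TGTGGT at -80, 24 and 32, each time on the opposite strand (printed ACCACA), and the Sema3a window held it at -10. The Smad9 window held GGCGCC at -51, and the Tnn window AGAACA on the opposite strand (printed TGTTCT) at -234. The Wif1 window held the palindrome CACGTG, in which ACGTG lies on both strands at -210 and -209, and TATAAA on the opposite strand (printed TTTATA) at -232. Positions count the leftmost printed base of a match. Slit2 had TATAAA at -28. Of all 27025 genes with a tabled promoter, 16.9% held the RUNX motif, 12.0% that of BMP SMADs, 19.0% the steroid receptor site, 19.7% the hypoxia core and 14.2% the TATA box, so a match is common and is a description of letters. The CREB, AP-1 and general SMAD motifs were in 1.88%, 7.93% and 0.211% of promoters and in none of these 6 windows. A promoter was found for 9563 of the 12041 genes (79.4%), below the 80% needed to compare risen with fallen genes, and no such comparison is made.

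On day 14 most genes lay near their day 0 level and a minority far from it. The median log2 ratio of day 14 over day 0 was -0.03, 71.2% of genes lay within 1.5-fold and 86.3% within 2-fold. In all 926 genes rose, 7.69% of those tested, and 924 fell, 7.67%. These 2 shares are the background for every list count below. With totals in place of TMM factors the median gene moved by -0.16 (log2), and 768 genes rose while 1184 fell. DESeq2 size factors gave 912 risen and 938 fallen genes, so the split was near even with both kinds of scaling factor and uneven without one. Both kinds of factor take the typical gene as unchanged. The median near 0 and the even split therefore follow in part from the scaling.

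Increases reached further than decreases. At least 4-fold higher were 398 genes (3.31%) and at least 4-fold lower 299 (2.48%), and at 16-fold the counts were 113 and 52. At 64-fold they were 39 and 2. In 26 of the genes no count was seen on day 0 and in 18 none on day 14; 6 of the 26, Hif3a, Hp, Lamc3, Trdn, Orm1 and Mettl21e, reached 10 CPM or more on day 14, and none of the 18 had done so on day 0. Mettl21e was singled out after its values were seen. All 26 were called risen and all 18 fallen. These calls follow from the count minimum, which such a gene can meet only through its counts on the other day. They are therefore no separate evidence where these genes are counted in the lists below, as with Hif3a, Lamc3, Zbtb16, Acp5 and Krt8.

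**Figure D1:**
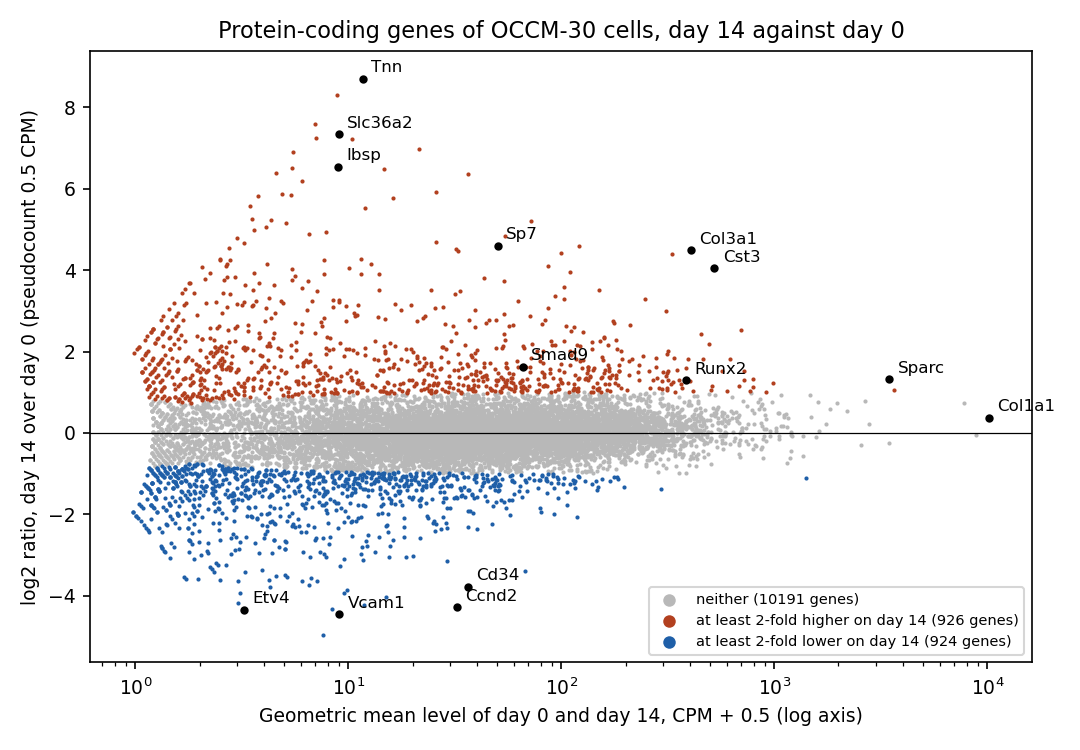
Log2 ratio of day 14 over day 0 (pseudocount 0.5 CPM) against the geometric mean level of both days in CPM + 0.5 (log axis), 1 point per protein-coding gene. Risen genes (926, red) extend to high levels and high ratios, fallen genes (924, blue) lie mostly at lower levels, and 10191 genes (grey) passed in neither direction.

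The 2 directions also differed in the level of their genes in CPM, which depends on gene length as well as on abundance. Among 2554 genes with a mean above 100 CPM, 182 (7.13%) rose and 32 (1.253%) fell; with total counts the numbers were 146 and 55. Among 2720 genes under 10 CPM, 410 (15.1%) rose and 548 (20.1%) fell. Genes that rose held 3.86% of the counts of all genes described here on day 0, 12.0% on day 7 and 11.2% on day 14. Genes that fell went from 3.07% through 0.884% to 1.01%. Because the classes were drawn from day 0 and day 14, their day 0 and day 14 shares follow from the choice, and the day 7 share is the one from a library that the choice did not use. The median risen gene stood at 4.92, 26.2 and 23.1 CPM and the median fallen gene at 10.1, 2.29 and 2.45 CPM. The medians of the listed gene length were 3480 bases for risen, 3500 for fallen and 3312 for all genes.

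The 5 genes taken as markers of the induced state set out its shape. Runx2 (chromosome 17, 44495986 to 44814831, mm10), the lineage factor of osteoblasts and cementoblasts, was well detected before induction and stood at 245, 462 and 602 CPM. Its day 14 level was 2.46-fold (2.36 to 2.56) above day 0. Sp7 (chromosome 15, 102356606 to 102367040), which encodes osterix and acts downstream of RUNX2, stood at 9.70, 224 and 248 CPM. It rose 25.5-fold (21.5 to 30.5) from a low day 0 level. Per length it stood at 3.21, 66.4 and 73.3 FPKM against 40.7, 68.997 and 89.4 FPKM for Runx2, where FPKM is the deposited level scaled to gene length and library size. Smad9 (chromosome 3, 54755455 to 54801662), a SMAD activated by BMP receptors, rose 3.12-fold (2.83 to 3.45) through levels of 36.97, 106 and 116 CPM.

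Slc36a2 (chromosome 11, 55158468 to 55185094), a proton-coupled carrier of small amino acids, was close to undetected before induction, with 3, 1501 and 1588 counts. Its ratio was 542-fold (185 to 2631). Etv4 (chromosome 11, 101769747 to 101785310), the ETS factor induced by FGF signals, went the other way with 199, 3 and 3 counts. It fell by 64.8-fold (21.8 to 317), and its day 7 and day 14 counts sit at the floor. All 5 markers had a day 7 level nearer to day 14 than to day 0, with Runx2 the most gradual.

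**Figure D2:**
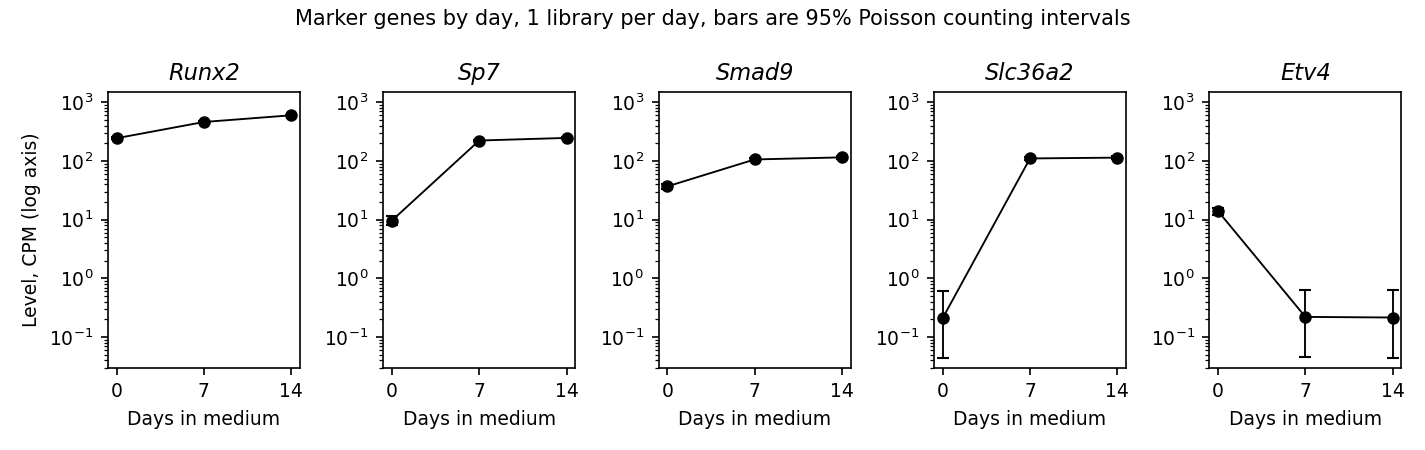
Level of 5 marker genes in CPM (log axis) by days in cementogenic medium, 1 library per day, with 95% Poisson counting intervals. Sp7 and Slc36a2 step up by day 7 and hold, Runx2 and Smad9 climb by smaller factors, and Etv4 drops to 3 counts on both later days.

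The cell type comes from the name of the line, and marker lists were read beside it. All 12 osteoblast and cementoblast markers, a list that includes the 5 genes above and that does not separate cementoblasts from osteoblasts, met the count minimum, with 9 risen and 1, Etv4, fallen. The 5 genes were picked as markers of the induced state, so their part in this count is not independent. The summed level of the list was 11666, 17692 and 18738 CPM. Most of it was Col1a1, which had a log2 ratio of 0.37 and passed in neither direction. Of 8 osteocyte markers 3 met the count minimum, among which Phex rose 3.30-fold (2.89 to 3.79) and Dmp1 fell by 2.93-fold (1.34 to 7.08), and Mepe was at 0 in every library. Of the enamel and dentin markers, Amelx, Ambn, Enam, Odam, Dspp and Klk4 were at 0 throughout, and only Hacd1 met the minimum, rising 2.08-fold (1.73 to 2.52), a call that ends with total counts.

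Of the marker lists of other cells, that of tendon and ligament had the highest summed level on day 14, 1630 CPM, and that of epithelium the lowest, 0.144 CPM. Macrophage and osteoclast markers summed to 15.6, 18.5 and 17.3 CPM with 2 of 5 measured risen, Mrc1 with 3, 26 and 34 counts and Acp5 with 0, 59 and 29 counts, while Adgre1, Calcr, Ocstamp, Dcstamp and Atp6v0d2 were at 0 in every library; with total counts 2 rose and 1 fell. Endothelial markers summed to 4.50, 5.02 and 4.17 CPM with 0 of 2 changed and Cdh5, Kdr, Emcn and Cldn5 at 0. The 1 epithelial marker measured, Krt8, went from 47 counts on day 0 to 2 and 0, at least 15.3-fold lower, and Epcam, Krt5 and Cldn4 were at 0. Adipocyte markers summed to 3.58, 24.7 and 25.2 CPM, nearly all of it Cebpa, with Adipoq and Cfd at 0.

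Of chondrocyte markers Comp rose 8.53-fold (2.60 to 44.2) to 25 counts and Col2a1 fell by 87.9-fold (15.4 to 3509) from 90 counts to 1, with Acan, Matn1 and Col9a1 at 0. In the skeletal muscle list Tnnt1 rose 23.3-fold (11.6 to 54.8) and Des 2.80-fold (2.25 to 3.52), and Myod1 and Pax7 were at 0. Neuronal and glial markers had 1 of 4 measured up, S100b, and 3 down, Tubb3 and Mbp among them, at a summed 13.1, 7.52 and 10.8 CPM. Tendon and ligament markers summed to 120, 1270 and 1630 CPM, most of it Postn on the later days, and split, with Postn and Aspn up and the tendon factors Scx and Mkx down, 16.9-fold (9.91 to 31.5) and 2.06-fold (1.69 to 2.51). The part of any of these cell types in the results was not tested.

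Skeletal transcription factors more often rose than fell: 14 of 27 measured rose and 2, Twist2 and Sox11, fell, with a median log2 ratio of 1.01 against -0.03 for all genes. Prrx1, a homeobox factor of limb and craniofacial mesenchyme, was the most abundant of them per length at 139, 264 and 292 FPKM and rose through 641, 1359 and 1506 CPM, a change of 2.35-fold (2.29 to 2.41). Mef2c, a MADS-box factor needed in bone, rose 8.59-fold (7.76 to 9.54) to 251.3 CPM. The distal-less factors Dlx3 and Dlx5, which act in tooth and bone, rose 9.73-fold (5.80 to 17.5) and 3.92-fold (2.77 to 5.67) and ended at 10.9 and 11.3 CPM. Creb3l1, an ER-bound activator of collagen genes, stood at 83.8, 209 and 222 CPM and Tcf7, a Wnt effector, at 22.3, 55.9 and 61.6 CPM, both risen. Zbtb16, a zinc-finger factor, was listed with 0, 134 and 69 counts, at least 23.6-fold above the floor.

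Not every factor of the lineage moved by 2-fold. Cbfb, the partner subunit of the RUNX proteins, was at 253, 334 and 396 CPM. Twist2, which restrains osteoblast maturation, fell by 5.75-fold (4.02 to 8.43) with levels of 14.9, 0.664 and 2.59 CPM, lowest on day 7. By the same rule its relative Twist1 rose. Sox11, a SOX factor of progenitors, fell by 23.8-fold (12.3 to 52.7). With total counts 11 of the 27 factors rose and 3 fell.

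Genes of mineralised matrix had 12 of 17 risen and 2 fallen, with a median log2 ratio of 1.70. Ibsp (bone sialoprotein), which nucleates mineral, went through 6, 948 and 1190 counts, a rise of 203-fold (93.04 to 555). Sparc, the collagen- and calcium-binding osteonectin, was the most abundant of them per length and rose 2.497-fold (2.46 to 2.53) through 2189, 5987 and 5466 CPM. Postn (periostin), a matricellular protein of the ligament, rose 21.2-fold (19.9 to 22.6) to 1515 CPM, and Tnc (tenascin C) 9.88-fold (9.29 to 10.5) to 777 CPM. Spp1 (osteopontin) had nearly the same level at both ends, 202, 318 and 239 CPM. Omd (osteomodulin) gained most of its rise after day 7, 7.66, 9.81 and 28.4 CPM. Phex, the endopeptidase lost in X-linked hypophosphataemia, gained on both steps, 19.6, 42.9 and 64.8 CPM.

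Osteocalcin counts were low on every day. The 3 osteocalcin copies were listed with 6, 29 and 69 counts for Bglap, 12, 68 and 110 counts for Bglap2 and 5, 12 and 26 counts for Bglap3. All 3 rose by the size rule, but reads of near-identical copies can be split between them, so their separate ratios are uncertain. Dmp1, a matrix protein of osteocytes and dentin, and Fetub (fetuin B) fell by 2.93-fold (1.34 to 7.08) and 2.20-fold (1.27 to 3.93) and were at 27, 7 and 9 counts and 45, 13 and 20 counts.

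Enzymes and carriers that control phosphate and pyrophosphate had 8 of 14 risen and 0 fallen, median 1.51. Alpl, the alkaline phosphatase that clears pyrophosphate, climbed on both steps through 53.1, 200.4 and 297 CPM, a rise of 5.59-fold (5.18 to 6.05). Nt5e, the ecto-nucleotidase CD73, stood at 37.7, 206 and 154 CPM, and Enpp2 (autotaxin) at 2.39, 8.26 and 18.6 CPM. Phospho1, which releases phosphate inside matrix vesicles, was at 19.9, 68.8 and 52.8 CPM, but much of its exon sequence is shared with overlapping genes on both strands, so its count is uncertain. The carbonic anhydrases Car2 and Car3 rose to 42 and 69 counts from 9 and 14. The pyrophosphate exporter gene Ank was at 119, 71.5 and 88.1 CPM and the phosphate carrier genes Slc20a1 and Slc20a2 at 96.99, 61.1 and 69.4 CPM and 51.7, 65.4 and 74.2 CPM, none past 2-fold.

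In the collagen matrix Col3a1, a fibrillar chain, had the largest fold of the risen chains. It went through 85.04, 2060.5 and 1933 CPM, a rise of 22.7-fold (21.5 to 24.1), while Col1a1 and Col1a2, the chains of type I collagen, began at 8914 and 6029 CPM and had log2 ratios of 0.37 and 0.74. Of 20 collagen chains 6 (30%) rose and 1 (5%), Col8a1, fell by 9.28-fold (7.73 to 11.2), with a median of 0.91. Over all genes tested 7.69% rose and 7.67% fell. With total counts 6 of the chains rose and 2 fell. The other risen chains, Col4a1, Col4a2, Col15a1, Col18a1 and Col24a1, belong to basement membrane or minor collagens and ended between 1.22 and 72.3 CPM. Summed over the list, collagen chains took 19960.5, 29551.5 and 31992.3 CPM.

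Processing enzymes followed in part. Of 31 genes of collagen secretion and crosslinking 6 (19.4%) rose, Lox, Loxl1, Plod2, P4ha2, Pcolce2 and Creb3l1. In that list 2 (6.45%), P3h2 and Adamts14, fell, and the median was 0.30. Of all genes tested 7.69% rose and 7.67% fell. Lox, the lysyl oxidase that starts crosslinks, stood at 332, 1208 and 1160.4 CPM, and Plod2, the telopeptide lysyl hydroxylase, at 334, 1197 and 958 CPM. The collagen chaperone gene Serpinh1 was level at 1213, 1233 and 1177 CPM. The procollagen protease gene Adamts14 fell by 15.7-fold (9.98 to 26.01).

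Small leucine-rich proteoglycans, which coat and space collagen fibrils, had 7 of 9 measured members risen and 0 fallen, the highest median of the matrix lists at 2.25. Fmod (fibromodulin) rose 17.6-fold (15.6 to 19.9) and held 20.5, 379 and 359.5 CPM. Aspn (asporin), abundant in periodontal ligament, rose 11.1-fold (9.32 to 13.4) and gained on both steps, 9.21, 57.2 and 103 CPM. Dcn (decorin) rose 5.09-fold (3.998 to 6.56) through 5.62, 21.4 and 28.6 CPM. Bgn (biglycan) was level at 10.3, 8.92 and 10.7 CPM.

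Elastic fibre genes split, with 4 of 12 risen (Fbn2, Fbln5, Ltbp4 and Emilin2) and 2 fallen (Fbn1 and Ltbp3), median 0.49; with total counts 3 rose and 3 fell. The fibrillin genes moved apart: Fbn2 went through 10, 111 and 141 counts and Fbn1 through 77, 1 and 20 counts. Fbn1 was at its lowest, 1 count, on day 7.

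Per length, the transcripts that led the day 14 library were mitochondrial and matrix genes. The deposited FPKM put COX1, a mitochondrial subunit of cytochrome oxidase, first at 6268, 3990.4 and 5445 FPKM on day 0, 7 and 14. Cst3 (cystatin C), a secreted inhibitor of cysteine proteases, was second at 173, 3929 and 2573 FPKM, having been far lower before induction. Sparc at 892, 2190.1 and 1991 FPKM, Col1a1 at 1617, 1662 and 1875 FPKM and Col1a2 at 1242, 1781 and 1853 FPKM came next among nuclear genes.

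The mitochondrial genes ND1, CYTB and ND2 had their lowest levels on day 7, for instance 1679, 989.8 and 2251 FPKM for ND1, and mitochondrial genes took 1.67%, 1.11% and 1.80% of counts. ND6, on the opposite mitochondrial strand, stood at 1330.5, 2592 and 2406 FPKM; the strand setting of the counting is not given, so reads of overlapping strands cannot be told apart there, and its 2-fold call ends with total counts. Actb at 2092, 1294 and 1586 FPKM and Eef1a1 at 1704, 1472 and 1242 FPKM, housekeeping genes of the cytoskeleton and of translation, did not reach 2-fold. Hist2h2bb and S100a4, also among the 15 highest, share most of their exons with another gene and are uncertain.

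**Figure D3:**
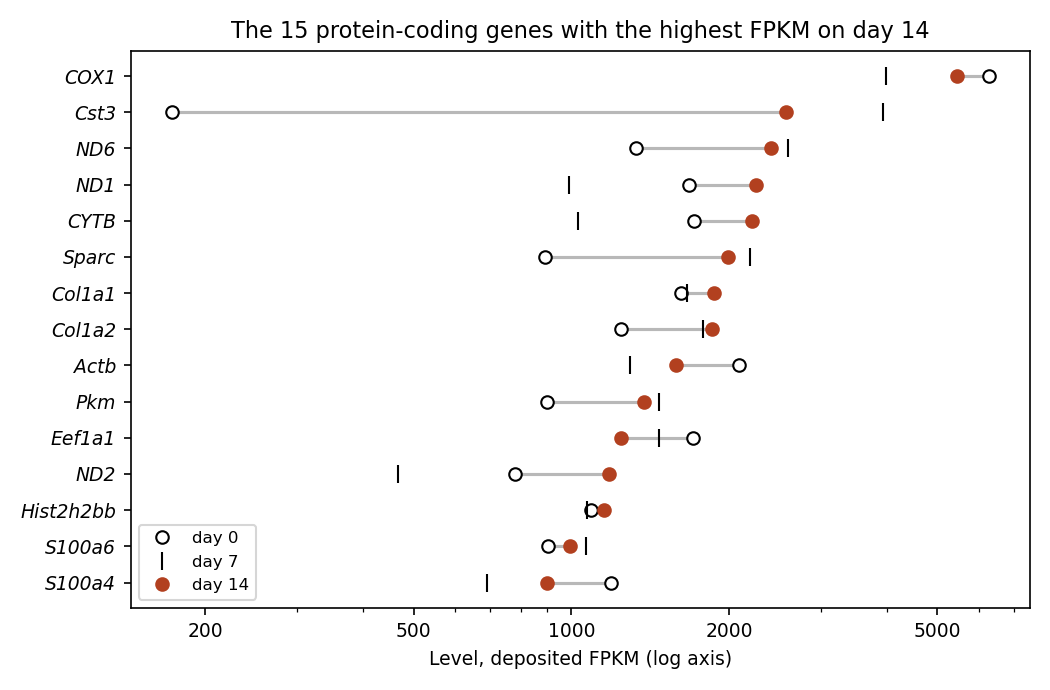
Deposited FPKM (log axis) of the 15 protein-coding genes with the highest FPKM on day 14, with open circles for day 0, ticks for day 7 and filled circles for day 14. Cst3 moved furthest, from 173 to 2573 FPKM, and most others moved little.

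By absolute gain in CPM the leaders were Col1a2, Sparc, Fn1, Col1a1 and Cst3. Fn1 (fibronectin) stood at 2518, 5369 and 5257 CPM, a 2-fold call that ends with total counts. The largest losses in CPM were Hsp90ab1, Plec, Actb, Flna and Eef1a1. Of these the cytosolic chaperone gene Hsp90ab1 passed the rule, falling 2.16-fold (2.12 to 2.21) through 2073, 1045 and 958 CPM. Plec (plectin) and Flna (filamin A), which tie the cytoskeleton together, were at 1475, 761 and 889 CPM and 1655, 678 and 1117 CPM. Among the 200 most abundant genes those closest to their day 0 level were Kmt2d, H1f0, Tpr, Gnb1 and Fth1.

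Matrix proteases and their inhibitors had 8 of 25 risen and 3 fallen, median 0.38. Mmp13, the collagenase of mineralising tissue, rose 38.4-fold (32.9 to 45.2) and held 11.3, 441 and 435 CPM. Adamts1, a proteoglycan-cleaving protease, rose 24.6-fold (22.1 to 27.5) but was lower on day 14 than on day 7, 24.1, 948 and 594 CPM. Adamts9 kept gaining, 31.8, 119 and 204 CPM. Htra1, a secreted serine protease, rose 3.52-fold (3.39 to 3.66), and Serpinf1, the secreted serpin PEDF lost in a form of brittle bone disease, 2.47-fold (2.40 to 2.55). Mmp9, Mmp16 and the urokinase gene Plau fell by 4.23-fold (2.23 to 8.71), 4.03-fold (2.997 to 5.50) and 3.14-fold (2.31 to 4.33). The membrane collagenase gene Mmp14 was at 403, 346 and 449.9 CPM and the inhibitor gene Timp2 at 553, 632 and 656 CPM.

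Laminin and integrin genes split, with 7 of 26 risen, 9 fallen and a median of -0.25. Lama4, the laminin alpha 4 chain, rose 12.3-fold (11.1 to 13.6) through 28.96, 399 and 355 CPM, as did Lama3, Lamb2 and Lamc3. Lama1 fell by 10.8-fold (9.51 to 12.2) through 217, 21.98 and 20.2 CPM, and Lamb1 4.23-fold (3.92 to 4.58) through 243, 42.4 and 57.5 CPM. The collagen-binding integrin genes Itga1 and Itga10 rose 3.66-fold (2.92 to 4.62) and 3.22-fold (3.03 to 3.43), whereas the laminin-binding Itga3 and Itga6 fell by 2.21-fold (2.04 to 2.39) and 17.3-fold (9.72 to 34.1). Itgb3, a subunit of the vitronectin receptor, fell by 3.19-fold (2.87 to 3.55), and Itgb1, the common beta subunit, had a log2 ratio of 0.49. Summed over the list the level was 5178, 5837 and 5412 CPM.

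Adhesion and progenitor surface genes had the highest share of fallen members among the pathway lists, 11 of 18, with 2 risen and a median of -1.73. Summed over the list the level went the other way, 1177, 1477 and 1889 CPM. Cd34, a sialomucin of stromal and blood progenitors, fell by 14.38-fold (12.04 to 17.3) through 135, 4.35 and 9.36 CPM. Vcam1, a vascular and stromal adhesion molecule, fell by 29.1-fold (18.7 to 48.1), and Cd44, the hyaluronan receptor, 2.76-fold (2.56 to 2.99). Ly6a (SCA-1), a stem cell surface antigen of mouse, fell by 5.96-fold (3.98 to 9.24). The risen members were Nt5e and Cdh11, the osteoblast cadherin, which stood at 194, 682 and 1043 CPM and was the most abundant of the list per length on day 14.

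The 15 largest increases among genes of 10 CPM or more on day 14 came from several functions. Tnn, tenascin W of bone and tooth matrix, headed them with 1, 5620 and 3307 counts, a ratio of 3387-fold (607 to 133804) set by a single day 0 read. Hif3a, a HIF subunit that can oppose the others, had 0, 3082 and 2173 counts and Hp (haptoglobin), which binds free haemoglobin, 0, 2201 and 1342 counts. Against the floor they were at least 742-fold and 458-fold higher. Wif1, a secreted Wnt inhibitor, had 1, 1662 and 1205 counts, and Hspb7, a small heat shock protein of muscle, 1, 1448 and 719 counts. All of these had day 7 levels above day 14.

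Among the rest of the 15, Serping1, Agt, Dpep1 and Car9 had firmer day 0 counts. Serping1, the C1 inhibitor of complement, rose 169.6-fold (109.6 to 278) from 20 counts, Agt (angiotensinogen) 131-fold (78.98 to 234) from 15, Dpep1, a membrane dipeptidase, 70.9-fold (51.9 to 99.5) from 40 and Car9, the hypoxia-induced carbonic anhydrase, 94.6-fold (71.6 to 128) from 50. Selenbp1, a selenium-binding protein, went through 5, 2129 and 1755 counts and Bpifb1, a secreted lipid-binding protein, through 3, 718 and 711 counts. Lamc3 and Trdn, the junctional protein triadin of muscle, were at 0 on day 0 and at least 283-fold and 196-fold higher. Ibsp and Slc36a2 complete the list.

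The 15 largest decreases included cell cycle, surface and guidance genes, and their ratios were smaller than those of the increases. Ccnd2 (cyclin D2) fell by 20.9-fold (16.98 to 25.9) through 143, 4.43 and 6.84 CPM, and Ccnd1 (cyclin D1) 27.1-fold (17.2 to 45.3) through 37.04, 0.148 and 1.37 CPM. Msln (mesothelin), a surface protein of mesothelia, fell by 48.4-fold (27.5 to 94.2) through 41.8, 1.18 and 0.864 CPM and Selp (P-selectin) 57.6-fold (19.4 to 282) to 3 counts. The guidance genes Sema3a, Slit2 and Sema3c fell by 22.9-fold (15.99 to 33.96), 18.6-fold (13.8 to 25.7) and 19.02-fold (12.9 to 29.1).

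The rest of these 15 act inside the cell or have no role given here. Pde4b, which degrades cyclic AMP, fell by 17.8-fold (12.3 to 26.9), and Pkia, an inhibitor of the cyclic AMP dependent kinase, 28.5-fold (11.9 to 89.1) to 5 counts. Samd12 and Tmcc3 fell by 40.3-fold (15.4 to 149.6) and 17.96-fold (11.2 to 30.7), and Vcam1, Etv4, Sox11 and Cd34 are described with their groups. In 12 of the 15 genes the lowest of the 3 levels was on day 7.

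**Figure D4:**
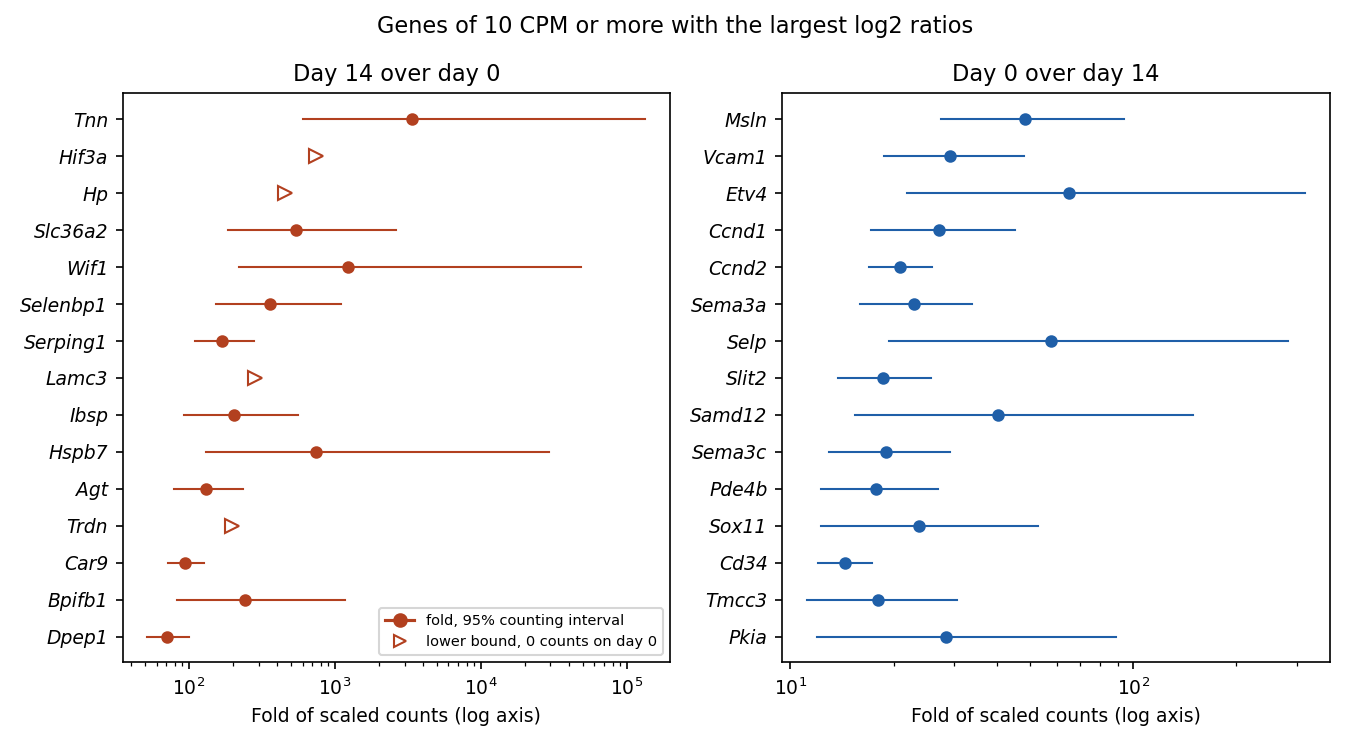
Fold of scaled counts (log axes) for the 15 genes of largest log2 ratio up or down among genes of 10 CPM or more, in order of that ratio, with 95% counting intervals and open triangles for lower bounds where day 0 had 0 counts. Increases run from 70.9-fold for Dpep1 upwards, and decreases from 14.38-fold for Cd34 to 64.8-fold for Etv4.

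Genes of the BMP branch that rose included ligands, a receptor, SMADs, targets and antagonists. Of 33 genes 13 rose and 0 fell, median 0.73; with total counts 11 rose and 2 fell. Among ligands Bmp8a rose 26.2-fold (16.4 to 44.6) through 1.27, 38.2 and 33.1 CPM, Bmp2 reached 29 counts from 12, and Bmp4 was at 26.3, 38.9 and 44.8 CPM. The receptor gene Acvrl1 (ALK1) had 1, 87 and 66 counts, a ratio of 67.6-fold (11.7 to 2709.6), while the receptor genes Bmpr1a and Bmpr2 were at 194, 225 and 277 CPM and 341, 457 and 567 CPM. Of the SMADs, Smad6, an inhibitor induced by the pathway, rose 3.44-fold (2.96 to 4.02) next to Smad9, and Smad1, Smad5 and Smad4 did not reach 2-fold.

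The BMP-induced inhibitors of differentiation Id1, Id2, Id3 and Id4 rose 2.04-fold (1.83 to 2.27), 3.12-fold (2.76 to 3.53), 2.16-fold (1.95 to 2.39) and 4.33-fold (2.34 to 8.65). Each of the 4 Id genes had its highest level on day 14, and the calls of Id1 and Id3 end with total counts. Antagonists rose too: Fst (follistatin) had 1, 269 and 179 counts, and Nbl1, a secreted BMP binder, stood at 13.3, 124 and 112 CPM. Chrdl1, a chordin-like antagonist, and the decoy receptor gene Bambi reached 25 and 83 counts from 7 and 33.

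TGF-beta and activin genes were balanced, with 3 of 20 risen, 3 fallen and a median of -0.07. The receptor genes Tgfbr1 and Tgfbr3 rose 2.05-fold (1.91 to 2.20) and 2.16-fold (2.03 to 2.30), calls that end with total counts, which leave 1 risen and 3 fallen. The targets Tgfbi and Pmepa1 fell by 2.27-fold (2.12 to 2.45) and 2.75-fold (2.26 to 3.36) and the activin subunit gene Inhba 3.11-fold (1.90 to 5.27).

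Of 32 genes of FGF signalling and ERK feedback 6 rose, 12 fell and 14 passed in neither direction, median -0.35. Their list nevertheless summed to 1231, 1401 and 1521 CPM. Fgfr3 rose 30.1-fold (25.4 to 35.99) through 9.63, 261 and 290.1 CPM and Fgfr2 5.12-fold (4.79 to 5.49) through 69.4, 281 and 356 CPM, while Fgfr1 was at 255, 301 and 289.6 CPM. Per length on day 14 the order was Fgfr3, Fgfr1 and Fgfr2, at 60.5, 55.5 and 50.6 FPKM. Fgf7, a mesenchymal ligand, rose 2.33-fold (1.96 to 2.78), and Fgf2, listed on a scaffold and uncertain, had 2, 33 and 22 counts.

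Of the 12 fallen genes, several besides Etv4 are ETS factors or feedback inhibitors: Etv5 fell by 5.60-fold (3.88 to 8.32), Etv1 3.38-fold (1.79 to 6.83), the phosphatase genes Dusp6 and Dusp4 5.35-fold (3.53 to 8.39) and 29.9-fold (9.93 to 148), Spry4 5.61-fold (1.92 to 22.3) and the receptor inhibitor Il17rd 6.31-fold (4.93 to 8.19). Each of these ended at or below the 5.25 CPM of Il17rd. The feedback gene Spry2 did not pass, at 12.9, 8.63 and 10.005 CPM. The adhesion ligands Flrt2 and Flrt3 fell by 5.54-fold (4.64 to 6.65) and 5.27-fold (4.58 to 6.08), and Phlda1 8.25-fold (5.04 to 14.3). Myc rose 2.97-fold (2.39 to 3.70) through 8.08, 23.5 and 23.97 CPM and Ier3, listed on a scaffold, 2.60-fold (2.04 to 3.34).

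Wnt genes had 8 of 25 risen and 3 fallen, median 0.34, with 10 listed genes at 0 on every day. The receptors Fzd4 and Fzd5 rose 6.40-fold (5.69 to 7.21) and 6.12-fold (5.63 to 6.66), and the co-receptor genes Lrp4 and Lrp5 4.64-fold (4.20 to 5.13) and 2.07-fold (1.95 to 2.20), the last call ending with total counts. The feedback target Axin2 rose 11.5-fold (7.97 to 17.01) and the secreted deacylase Notum 10.7-fold (6.39 to 19.1), alongside Wif1 and Tcf7. Fzd2, the R-spondin receptor gene Lgr6 and the ligand gene Wnt5b fell by 3.08-fold (2.66 to 3.57), 8.84-fold (7.04 to 11.2) and 2.34-fold (1.251 to 4.61).

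In the IGF list 7 of 15 rose and 3 fell, median 0.86. Igf1 gained mostly after day 7, 3.30, 8.04 and 28.9 CPM, and rose 8.74-fold (6.45 to 12.1) in all. Igf2 rose 24.9-fold (20.1 to 31.2) through 6.18, 185 and 154 CPM, though it shares exons with an overlapping gene of its strand. Igf1r, the receptor gene, stood at 190.05, 683 and 501 CPM. Pappa, a protease that frees IGF from its binding proteins, had 1, 238 and 144 counts, and its relative Pappa2 rose 4.39-fold (3.60 to 5.39). The growth hormone receptor gene Ghr rose 4.21-fold (3.92 to 4.52). The binding protein genes Igfbp4, Igfbp6 and Igfbp7 fell by 5.86-fold (3.71 to 9.67), 4.10-fold (3.67 to 4.59) and 2.17-fold (1.82 to 2.59).

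PDGF, EGF and VEGF genes had 6 of 27 risen and 8 fallen, median -0.30, or 5 and 11 with total counts. Their list nevertheless summed to 1808, 2302 and 2527 CPM. The risen were Pdgfd, Pdgfra, Flt1, Nrp1, Angpt2 and Kitl. Flt1, a VEGF receptor, stood at 70.7, 181 and 216 CPM and Nrp1, the shared receptor of VEGF and semaphorins, at 42.3, 143 and 191 CPM. Pdgfra was at 252, 454 and 538 CPM, a call that ends with total counts, and Pdgfrb at 197, 84.3 and 110.1 CPM. Ligand genes made up 7 of the 8 fallen, among them Pdgfa, Pdgfb, Hbegf, Ereg, Nrg1 and Bdnf. The fallen receptor gene was Met, the hepatocyte growth factor receptor, which fell by 3.64-fold (3.26 to 4.08) through 104, 27.7 and 28.5 CPM.

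Guidance genes fell more widely than they rose, 14 against 4 of 31, with a median of -0.82. Semaphorin ligand genes made up 7 of the 14, Sema3a, Sema3b, Sema3c, Sema3d, Sema3e, Sema5a and Sema7a. Sema3e fell by 6.28-fold (5.06 to 7.86) through 43.9, 2.51 and 6.98 CPM and Sema5a 2.10-fold (1.92 to 2.29) through 117, 35.04 and 55.7 CPM. Their receptor genes Plxna1 and Plxna2 fell by 2.21-fold (2.08 to 2.34) and 6.71-fold (4.81 to 9.60), and the ephrin genes Efna5 and Efnb1 4.81-fold (4.04 to 5.76) and 2.47-fold (2.09 to 2.93). Slit3 rose 3.76-fold (3.21 to 4.43) while its relative Slit2 fell, and Plxnb1, Plxnc1 and Epha7 rose to 49.0, 1.73 and 2.52 CPM. In the Notch and Hedgehog list 1 of 16 (6.25%), Hey1, rose 10.1-fold (6.69 to 15.9). In that list 2 (12.5%), the target Hes1 and the ligand Dll1, fell by 2.91-fold (2.11 to 4.07) and 2.04-fold (1.34 to 3.14). Its median was 0.30, and with total counts 5 fell. The shares over all genes tested were 7.69% risen and 7.67% fallen.

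Genes known to be induced by glucocorticoids had the highest share of risen members of the pathway lists, 18 of 19 with 0 fallen and a median of 2.16. That list was chosen with earlier results of these data known. Sgk1, a serum- and glucocorticoid-regulated kinase, rose 7.51-fold (6.73 to 8.40) through 25.8, 221 and 194 CPM, and Tsc22d3 (GILZ) 4.87-fold (4.45 to 5.34) through 40.2, 246 and 196 CPM. Glul (glutamine synthetase) rose 4.04-fold (3.86 to 4.24) through 157, 657 and 635 CPM. Sult1a1, a sulfotransferase, went through 1, 269 and 298 counts. The metallothionein genes Mt1 and Mt2, which bind zinc and copper and share sequence with each other, were among 5 members that climbed on both steps, 46.7, 147 and 224 CPM and 126, 235 and 341 CPM; exons of Mt2 also overlap a gene on the other strand. Nr3c1, which encodes the glucocorticoid receptor, was at 160.3, 229 and 218 CPM.

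Immediate early and Kruppel-like factor genes had 12 of 29 risen and 1, Egr2, fallen 4.36-fold (2.47 to 8.22), with a median of 0.52. Klf15 went through 5, 675 and 414 counts and Klf9 through 40.6, 203 and 165 CPM; both are known steroid targets. Klf2 rose 11.5-fold (8.09 to 16.9) and Fosl2, an AP-1 subunit of osteoblasts, 3.44-fold (3.14 to 3.78). Fos rose 2.503-fold (1.81 to 3.50) to 132 counts. Egr1 and Klf4 did not reach 2-fold.

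Of 18 circadian clock genes 7 rose and 1, Ciart, fell, median 0.39. The activator genes Arntl and Npas2 rose 2.49-fold (2.20 to 2.82) and 13.6-fold (8.04 to 24.7), and the repressor Nr1d1 2.70-fold (2.40 to 3.05), through 26.6, 129 and 72.05 CPM. Dbp and Per2, output and repressor genes, were at 39.9, 43.1 and 27.999 CPM and 48.1, 30.2 and 29.5 CPM. With 1 library a day the hour of sampling cannot be told apart from the day.

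Receptors for hormones and vitamins had 9 of 25 risen (36%) and 2, Ppard and Nr4a2, fallen (8%), median 0.65. Over all genes the shares were 7.69% and 7.67%. Pth1r, the receptor of parathyroid hormone in osteoblasts, rose 17.2-fold (12.7 to 23.8) and held 3.09, 60.3 and 53.1 CPM. Rora, a retinoid-related orphan receptor, stood at 80.9, 423 and 399 CPM. Ramp1, the partner of the CGRP receptor, rose 8.34-fold (6.20 to 11.4), and Esr1 (oestrogen receptor alpha) reached 61 counts from 9. S1pr1, a sphingosine phosphate receptor, passed at 2.01-fold, a call that ends with DESeq2 size factors and with total counts. Vdr, the vitamin D receptor, was at 29.1, 24.9 and 25.1 CPM.

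Glycolysis and hypoxia genes had 12 of 35 risen and 0 fallen, median 0.92, and their summed level was 6511, 13610 and 11777 CPM. Aldoc rose 28.6-fold (22.3 to 37.2) through 4.57, 167 and 131 CPM. Bnip3, a mitophagy receptor, rose 3.49-fold (3.27 to 3.72) and Ndrg1 3.41-fold (3.23 to 3.61), each highest on day 7, and the prolyl hydroxylase gene Egln3 rose 2.73-fold (2.41 to 3.10). The glucose carrier gene Slc2a3 rose 14.38-fold (9.42 to 23.01) while Slc2a1 was at 104, 129 and 109.7 CPM. Pkm and Ldha, enzymes of the last steps, were at 2029, 3695 and 3472 CPM and 679, 1145 and 1117 CPM. Hif1a itself was at 253, 244 and 313 CPM.

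Most genes of respiration stayed within 2-fold, with 2 of 38 genes of the TCA cycle and oxidative phosphorylation risen, 2 fallen and a median of -0.03. Each count was 5.26% of the list, against 7.69% and 7.67% over all genes. Ppargc1a, the coactivator that promotes mitochondrial genes, rose 9.66-fold (8.54 to 10.96) through 19.8, 184 and 191 CPM, and Cox7a1, a muscle-type oxidase subunit, 6.86-fold (3.51 to 14.96) to 67 counts. Ndufa4 fell by 2.29-fold (2.04 to 2.58) and Uqcrc1, listed on a scaffold and uncertain, 10.2-fold (5.31 to 21.8).

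Among 30 amino acid and proton-coupled carriers 3 (10%) rose and 7 (23.3%) fell, median -0.04, against 7.69% and 7.67% over all genes. Slc36a2 rose, while its relatives Slc36a1 and Slc36a4 passed in neither direction, at 49.7, 46.03 and 44.1 CPM and 56.8, 62.7 and 70.97 CPM. Slc38a1, a glutamine carrier, fell by 17.1-fold (10.5 to 29.8) through 20.9, 0.443 and 1.22 CPM, while Slc38a2 was at 584, 683 and 789 CPM. Slc7a5, a large neutral amino acid carrier, and Slc16a1, a lactate carrier, fell by 2.25-fold (2.12 to 2.39) and 3.87-fold (3.53 to 4.25). Slc7a11, the cystine carrier, fell by 2.71-fold (2.28 to 3.23) and was lowest on day 7, 35.5, 2.58 and 13.1 CPM.

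Serine synthesis, tRNA synthetase and ATF4 target genes had 0 of 30 risen and 5 fallen, median -0.47; with total counts 9 fell. The serine pathway genes Phgdh, Psat1 and Psph fell by 2.55-fold (2.37 to 2.75), 2.52-fold (2.36 to 2.69) and 2.26-fold (1.93 to 2.65), and Atf5 and Trib3 2.16-fold (2.0002 to 2.33) and 2.88-fold (2.53 to 3.29). In each of the 5 the lowest level was on day 7, for instance 234, 60.9 and 92.8 CPM for Psat1. Atf4 was at 312, 146 and 224 CPM.

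Lipid genes moved little as groups. Cholesterol synthesis had 3 of 24 fallen, Mvd, Nsdhl and Tm7sf2, by 2.47-fold (2.13 to 2.88), 2.33-fold (2.12 to 2.56) and 2.22-fold (1.75 to 2.83), and 1 risen, the efflux gene Abca1, with a median of -0.45; with total counts 0 rose and 6 fell. Fatty acid and adipocyte genes had 2 of 22 risen (9.09%) and 1 fallen (4.55%), median -0.16. Over all genes tested 7.69% rose and 7.67% fell. Cebpa rose 7.68-fold (5.63 to 10.7) and Plin4, a lipid droplet coat protein, 12.7-fold (9.60 to 17.2), but Pparg, Adipoq and Fabp4 were under the count minimum. Elovl6, a fatty acid elongase, fell by 2.26-fold (2.12 to 2.41) through 219, 42.7 and 96.8 CPM.

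Antioxidant and detoxification genes had 5 of 26 risen (19.2%) and 2 fallen (7.69%), median 0.17. The shares over all genes tested were 7.69% risen and 7.67% fallen, so the fallen share was that of all genes. Sepp1 (selenoprotein P) rose 6.81-fold (6.36 to 7.30) through 66.98, 453 and 456 CPM and Gclc, which starts glutathione synthesis, 4.51-fold (4.18 to 4.88) through 55.3, 202 and 249.7 CPM. Gpx1, the selenium enzyme glutathione peroxidase, fell by 2.84-fold (2.56 to 3.15) through 99.8, 29.1 and 35.2 CPM.

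Transcripts of cell division stayed within 2-fold. Of 40 replication and mitosis genes 0 rose and 0 fell, with a median of -0.13, and their summed level was 8592, 9563 and 8805 CPM. Top2a was at 1088, 1459 and 1202 CPM and Mki67 at 968, 1217 and 1338 CPM. Of 32 genes of D cyclins, CDK inhibitors and p53 targets 4 rose and 4 fell, 12.5% each way against 7.69% and 7.67% over all genes. That list's median, 0.06, changes sign with total counts, to -0.09, where 3 rose and 5 fell. Cdkn1a, the CDK inhibitor p21, rose 5.50-fold (4.88 to 6.21) through 22.6, 122 and 124 CPM, and Trp53inp1 15.9-fold (14.3 to 17.7). Ccnd3, the other D cyclin gene, was level at 77.7, 93.2 and 72.05 CPM, and its partner kinase genes Cdk4 and Cdk6 were at 258, 144 and 153 CPM and 85.5, 48.8 and 45.1 CPM. Cdkn2b (p15) and the receptor gene Eda2r fell by 3.55-fold (2.72 to 4.68) and 19.5-fold (7.34 to 73.4).

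Genes of protein synthesis and export passed in neither direction as lists. Of 47 cytosolic ribosomal protein genes 0 rose and 0 fell, with a median of -0.36 and a summed level of 6726, 6720 and 5331 CPM; with total counts 1 fell. Pseudogenes share reads with many of them. ER folding and secretion genes had 0 of 32 in either direction and a median of 0.24. Hspa5 (BiP), the main ER chaperone, was at 582, 774 and 565 CPM, and Hsp90b1 at 1225, 2341 and 2086 CPM. Lysosome and autophagy genes had 4 of 33 risen (12.1%), Mitf, Wipi1, Ulk1 and Bnip3, and 0 fallen, median 0.34. The Ulk1 call ends with total counts. Of all genes tested 7.69% rose and 7.67% fell.

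Innate immune genes split into secreted plasma proteins that rose and chemokines that fell. Complement and acute phase genes had 8 of 14 risen and 1, Cd59a, fallen, median 2.06. Of 28 listed genes, 14 were under the count minimum, with 6 of these at 0 on every day. Hp and Orm1 met the minimum through day 14 counts alone. Cp (ceruloplasmin), a copper ferroxidase, stood at 20.9, 528 and 459.8 CPM, and C3, the central complement protein, at 6.68, 63.9 and 81.98 CPM. Orm1, an acute phase glycoprotein, went through 0, 527 and 388 counts.

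Chemokines and cytokines had 12 of 26 fallen and 3 risen, median -0.78. Cxcl12, the stromal chemokine, fell by 4.33-fold (3.68 to 5.11) through 56.4, 9.29 and 13.03 CPM, Cx3cl1 3.66-fold (3.13 to 4.29) through 54.3, 12.2 and 14.8 CPM and Ccl2 16.9-fold (8.97 to 35.9) through 12.2, 0.811 and 0.720 CPM. Tnfsf11 (RANKL), which drives osteoclast formation, fell by 3.48-fold (2.21 to 5.66) through 6.26, 3.02 and 1.80 CPM, and its decoy receptor gene Tnfrsf11b (osteoprotegerin) stood at 8.996, 0.885 and 5.76 CPM. The cyclooxygenase genes Ptgs1 and Ptgs2 fell by 3.22-fold (2.85 to 3.64) and 2.97-fold (2.38 to 3.72). The NF-kappaB brakes Nfkbia and Tnfaip3 rose 2.85-fold (2.59 to 3.14) and 2.28-fold (1.91 to 2.72).

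Interferon-stimulated and antigen presentation genes had 10 of 30 fallen and 3 risen, median -0.52; with total counts 13 fell and 1 rose. Ifi44 fell by 3.32-fold (2.84 to 3.90) through 49.8, 5.24 and 14.97 CPM, Cd74, the invariant chain, 3.50-fold (3.10 to 3.95) through 88.3, 19.9 and 25.3 CPM, and the guanylate-binding protein genes Gbp2, Gbp3 and Gbp7 2.07-fold (1.27 to 3.43), 4.76-fold (3.02 to 7.81) and 2.37-fold (1.67 to 3.40). Mx2 rose 10.1-fold (7.42 to 13.9) through 3.23, 30.7 and 32.5 CPM, the 1 call of the 3 that holds with total counts. B2m, the light chain of class I molecules, was at 203, 361 and 429 CPM, while H2-D1, Psmb8 and Psmb9 were listed at 0.

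Smooth muscle and YAP target genes had 8 of 26 risen (30.8%) and 2, Nov and Ankrd1, fallen (7.69%), median 0.18. Over all genes the shares were 7.69% and 7.67%. Mylk, the myosin light chain kinase, rose 3.83-fold (3.66 to 4.01) through 159.8, 509 and 612 CPM. Myocd (myocardin), the coactivator of smooth muscle genes, went through 1, 97 and 114 counts and Actg2, a smooth muscle actin, through 1, 122 and 41 counts. The alpha smooth muscle actin gene Acta2 was at 36.97, 83.4 and 53.7 CPM, and Tagln was under the count minimum. The matricellular genes Cyr61 and Wisp2 rose 6.28-fold (5.57 to 7.09) and 3.12-fold (2.80 to 3.49), and Ctgf was at 5.62, 9.66 and 5.33 CPM.

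Of 24 ion channel genes measured 3 (12.5%) rose and 4 (16.7%) fell, median -0.04, against 7.69% and 7.67% over all genes. A further 13 listed channels were at 0 on every day. Panx3, a pannexin of osteoblasts and chondrocytes, rose 14.5-fold (12.4 to 17.2) and gained on both steps, 11.1, 85.4 and 161 CPM. Gja1 (connexin 43), the main gap junction gene of osteoblasts, fell by 2.79-fold (2.56 to 3.04) with its lowest level on day 7, 142, 17.7 and 51.03 CPM. Itpr1 and Cacna1g rose 2.80-fold (2.68 to 2.93) and 2.52-fold (2.34 to 2.71). Kcnj2, Panx1 and Ano1 fell by 14.8-fold (6.93 to 37.7), 3.65-fold (2.03 to 6.94) and 5.24-fold (2.73 to 11.1).

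**Figure D5:**
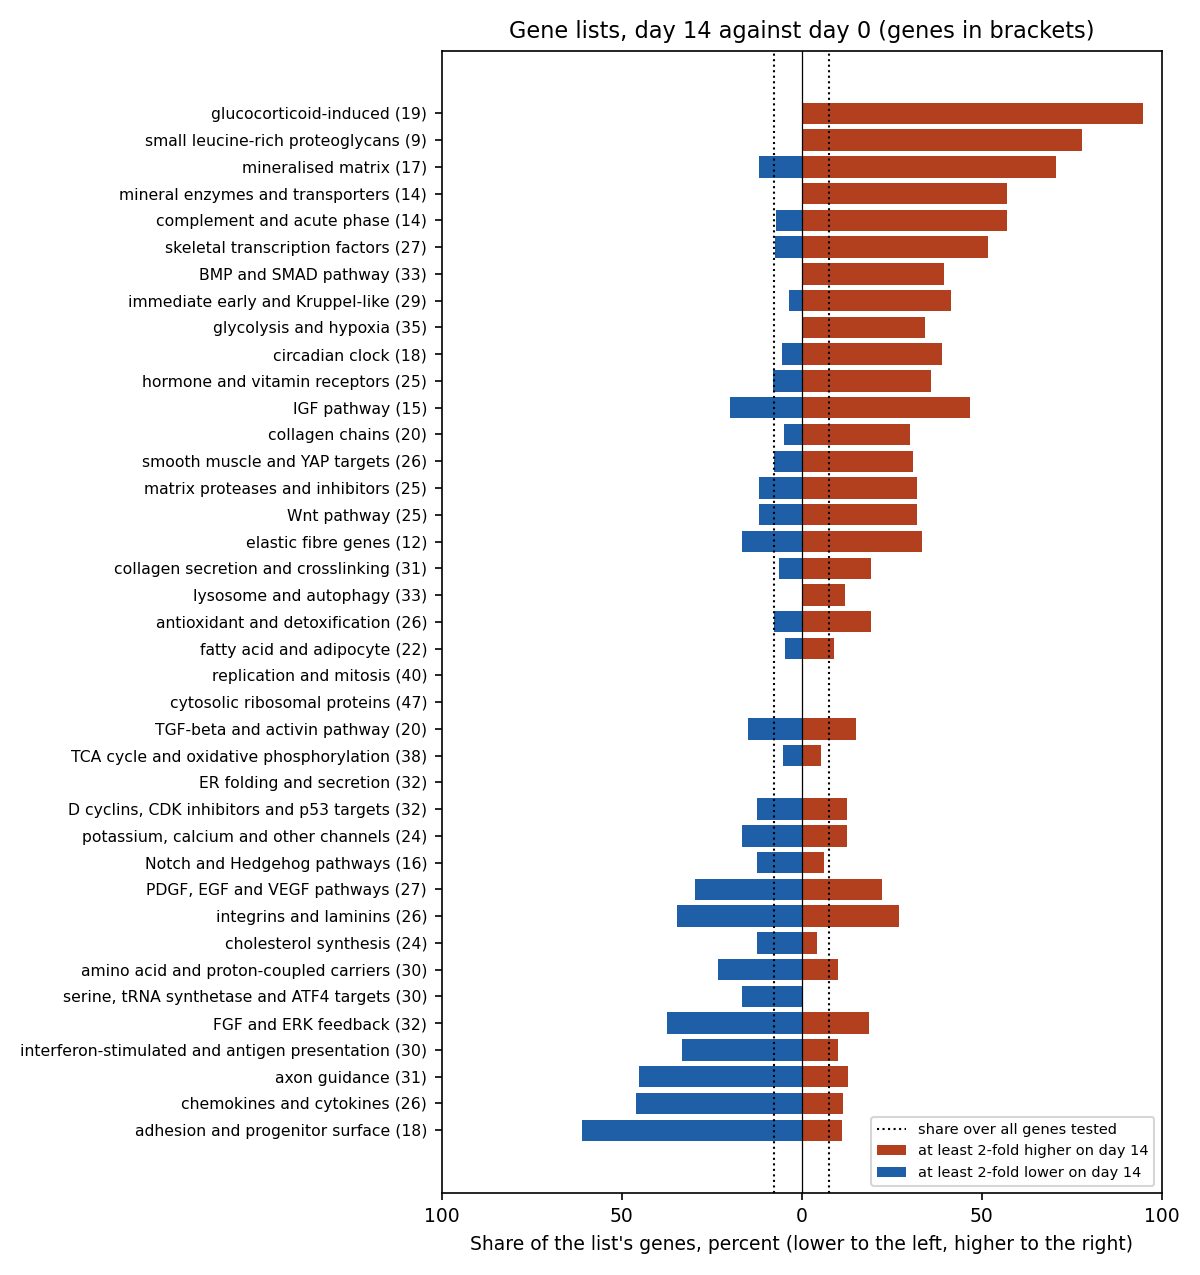
Share of each pathway list's measured genes (number in brackets) that were at least 2-fold higher (red, to the right) or lower (blue, to the left) on day 14 than on day 0. Lists are in order of the share higher minus the share lower. Dotted lines mark the shares over all genes tested, 7.69% and 7.67%, and lists of glucocorticoid-induced and matrix genes lie at the top and adhesion, chemokine and guidance genes at the bottom.

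The count minimum left out 10036 protein-coding genes, 7122 of them at 0 on both days. At its edge 46 genes had a summed count of exactly 20 and 42 a summed count of 19. Among those just inside was Btc, an EGF family ligand, with 20, 0 and 0 counts, which fell by the size rule at a lower bound of 6.51-fold.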

How the data were processed

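RNA of OCCM-30 cells was sequenced on day 0, 7 and 14, with 1 library per time point, so samples were grouped by the day on their labels. The deposited table gives, per gene, raw read counts and the authors' FPKM values; exact zeros are listed as 0. Per the submitters' processing notes the tools named were HISAT2, TopHat, Cufflinks, HTSeq and DESeq, with the mm10 build; the sources used here do not give their versions, roles, strand setting or treatment of multiply mapped reads. Total counts of 13224690 to 14439666 set the precision. The miRNA tables were not used here.

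Counts were scaled by edgeR 4.0.16 TMM factors over the 3 libraries (R 4.3.3), and the ratio of day 14 over day 0 was given an exact Clopper-Pearson 95% interval (Python 3.11.15, scipy 1.17.1, pandas 2.3.3, numpy 2.4.6; plots with matplotlib 3.10.9). Log2 ratios used a pseudocount of 0.5 CPM. A fold is of scaled counts without a pseudocount. The calculation was tested on simulated data. Other settings tried were size factors of DESeq2 1.42.0, totals with no factor, other TMM gene or library sets, other count, CPM, fold and pseudocount settings, and FPKM ratios.

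Genes were named from the 5 markers, the 15 largest log2 ratios in each direction, the 15 highest day 14 FPKM values, the 5 largest gains and losses in CPM, the 5 genes nearest 1-fold among the 200 most abundant, up to 5 genes on each side of the count minimum, and in each list up to 4 genes by level, up to 4 by ratio and those completing a count of 5 or fewer. Values of some list members that this rule names are not reported here. Other members of the 39 pathway and 11 marker lists that the text describes were chosen after their values were seen. The members and lists were chosen with earlier results of these data known. The comparisons of day 7 and of day 14 with day 0 share the day 0 library, so day 7 is given as a level only. Genes listed on scaffolds, 298 in all and 48 of them risen or fallen, and genes with near-identical copies or overlapping neighbours have uncertain counts; 99 of 11607 genes with annotated exons shared at least 50% of their exon length with a gene on the other strand.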

Additional observations from a re-analysis of the deposited data

How the results depend on the processing

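The number of genes higher on day 14, 926, ranged from 668 to 966 over the alternatives that kept the 2-fold threshold, and a 4-fold threshold gave 398. The number lower, 924, became 599 with a 5 CPM minimum, 579 with a summed count of 100 or more and 299 with a 4-fold threshold, each of which keeps fewer genes by construction; DESeq2 size factors gave 912 higher and 938 lower. Total counts gave 768 and 1184 and FPKM ratios 791 and 1206, so the share of called genes that were higher went from 50.05% to 39.34% with total counts. All 768 of the former were among the 926 higher genes, and all 924 lower genes were among the 1184. Of the 365 genes named by rule, 235 had risen or fallen, and none of these changed direction under an alternative. In the other named genes a change of sign without a call was not counted. Calls of 15 of the 235, among them Fn1, Pdgfra, Tgfbr1, B2m and S1pr1, ended with total counts and with FPKM ratios. Under each of these 2 settings 3 other named genes gained a call. A 5 CPM minimum ended 32 of the 235 calls and a 4-fold threshold 86. Low counts limit 2720 genes under 10 CPM most. No paired analysis was possible because each time point had 1 library.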

Other observations

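Some genes that moved the same way lay next to each other on the chromosomes (mm10). Counting only the protein-coding genes described above, 29 runs of 3 or more neighbours passed in 1 direction on day 14. The longest was a run of 5 fallen genes on chromosome 3 (142530336 to 142744911), the guanylate-binding protein genes Gbp7, Gbp3, Gbp2b and Gbp2 and the neighbouring Kyat3. These copies share sequence, so their separate counts are uncertain. On chromosome 1 (193221640 to 194961292) Hsd11b1, which reactivates glucocorticoids, Lamb3, Plxna2 and Cd34 fell. A run of 3 risen genes on chromosome 13 (49504810 to 49592612) held the leucine-rich matrix genes Ecm2, Aspn and Omd, and a run of 3 fallen genes on chromosome 5 (12383166 to 14256689) the semaphorins Sema3d, Sema3a and Sema3e. With 7.69% of genes risen and 7.67% fallen some runs can arise from random placement of the calls, and how many was not tested. How often neighbours would share a direction in other data was not tested either.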
